A study of Saccharomyces cerevisiae with 10 samples.

Results

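YOR338W, PRM5 and YLR108C are little-studied yeast genes that stood higher in yeast with a plasmid that encodes αENaC, the alpha chain of the epithelial sodium channel, than in yeast with the vector. Each has a paralog, FUN19, YNL058C and YDR132C respectively, so the 6 genes form 3 pairs of related proteins. YOR338W, PRM5 and YLR108C were chosen by their difference between αENaC and control arrays, and their values in that comparison are given below as a description, without a test. FUN19, YNL058C and YDR132C entered as paralogs and not by their own values, and the question asked of them is whether they followed. The platform annotation used here names a probe set for 5 of the 6 genes, 1 each, among 5498 probe sets that name 1 Saccharomyces cerevisiae gene. It lists none for YDR132C (current symbol MRX16), so that gene, and with it the pair with YLR108C, was not analysed here.

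Both groups were Saccharomyces cerevisiae grown at 26 °C in selective medium to mid log phase. The 3 αENaC arrays came from cells with prs426GPD-αENaC-HA, which drives an HA-tagged channel subunit from a constitutive glycolytic promoter. The 7 control arrays came from cells with the vector pRSGPD426, so growth under plasmid selection is common to all. The labels give no host strain. No probe set used here reads the channel transcript, which leaves the group labels unchecked. By the numbers in the sample titles the arrays form 3 sets. Set 1 (numbers 1 to 4) comprises αENaC 1 and 2 and controls 1 and 2. Set 2 (5 and 6) comprises αENaC 3 and control 3. Set 3 (11 to 14) comprises controls 4 to 7 and no αENaC array. Arrays of the same group and set correlated across probe sets at 0.997 or more, except control 4, which stood apart from controls 5 to 7 at 0.980 to 0.985. Those of different groups within a set at 0.975 to 0.981, and those of the same group in different sets at 0.925 to 0.977. αENaC 1 and 2, at 0.999, are thus close to 1 measurement.

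Genes of the yeast genome duplication often persist as pairs of paralogs, and the copies may differ in when they are expressed. PRM5 encodes a predicted membrane protein that is induced by mating pheromone and by the cell wall integrity pathway, in which the kinase Slt2 activates the transcription factor Rlm1. Its paralog YNL058C is of unknown function. YOR338W and FUN19 encode proteins with a SWIRM domain, a fold found in chromatin proteins. YOR338W is known as a target of the transcription factor Azf1, and FUN19 as a gene induced by heat. YLR108C encodes a protein of unknown function seen in the nucleus.

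Levels are given as log2 of the signal in units of the array mean, plus 0.03, after quantile normalization. The scale takes each array's lowest score as no signal, so a difference on it is not a measured fold of transcript. The array gives no common scale between probe sets, so each gene is compared with itself across arrays. On this scale the background was −2.03, the 95th percentile of probe sets named for genes outside Saccharomyces cerevisiae, and all 5 measured genes lay above it on average. The identifiers of the 5 probe sets carry no mark of probes shared between sequences. Cross-hybridisation between paralogs was not tested.

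**Figure D1:**
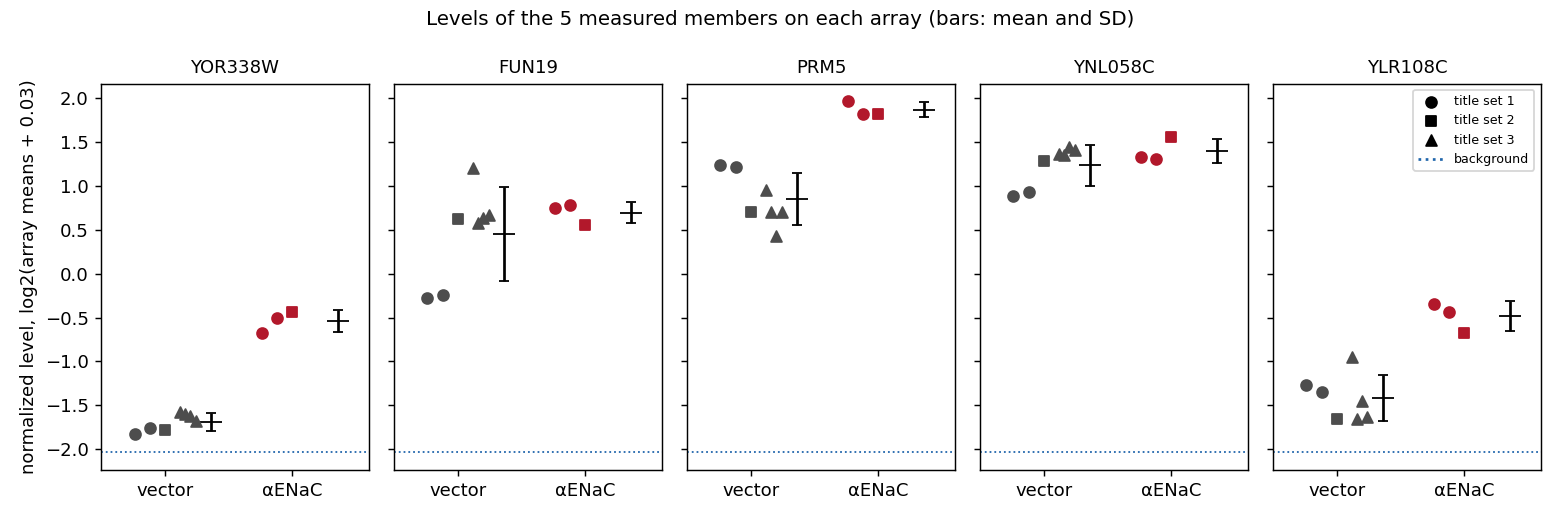
Normalized level (log2 of array means plus 0.03, vertical axis) of the 5 measured genes on each vector control array (grey) and αENaC array (red), with symbols for the title sets, a bar for the mean and SD of each group (n = 7 and 3) and a dotted line for the background of −2.03. For YOR338W, PRM5 and YLR108C every red point is above every grey point, whereas for FUN19 and YNL058C the groups overlap and controls 1 and 2 are the lowest points.

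YOR338W stood at −0.68, −0.51 and −0.44 on αENaC arrays 1, 2 and 3. On the 7 controls it ranged from −1.83 to −1.57 with a median of −1.68. All αENaC arrays were above all controls, with a gap of 0.90 between the lowest αENaC and the highest control array. The control mean lay 0.34 above the background. The difference was 1.15 ± 0.08 on the log2 scale (SE, n = 3 and 7), which ranked 12 among 5498. It was 1.20 within set 1 and 1.35 within set 2, so the elevation was present in both sets that hold αENaC arrays. Control levels were similar in every set, at −1.79 in set 1, −1.78 in set 2 and −1.62 in set 3.

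FUN19, the heat-inducible paralog of YOR338W, stood at 0.75, 0.78 and 0.56 on αENaC arrays 1, 2 and 3. The controls ranged from −0.28 to 1.20 with a median of 0.62. Controls 1 and 2 were low, at −0.28 and −0.24, and control 4 was the highest of all arrays. Controls 3, 5, 6 and 7 stood at 0.58 to 0.66. αENaC 1 and 2 lay above these controls and below control 4, and αENaC 3 lay slightly below them. Over all arrays the difference was 0.24 ± 0.29 (SE, n = 3 and 7; limma adjusted p = 0.691), with a 95% interval from −0.39 to 0.88. It was 0.12 without control 1 or control 2 and 0.37 without control 4. The log2 ratio of YOR338W to FUN19 within an array was 0.91 higher in αENaC, 0.18 within set 1 and 1.41 within set 2. Because YOR338W was chosen for its rise, that change of ratio has no test.

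The value for FUN19 depended on the set. Within set 1 FUN19 was 1.02 higher in αENaC, against 1.20 for YOR338W, and within set 2 it was 0.06 lower. The set-block fit gave 0.66 ± 0.23 (adjusted p = 0.0919). The difference between the sets was 1.09 ± 0.33 and did not pass (unadjusted p = 0.0124, limma adjusted p = 0.0607). That test assumes that the lone arrays of set 2 vary like the others, and it called 17.4% of the 5498 probe sets. Against the set 3 controls alone FUN19 was 0.07 lower in αENaC. Among the controls themselves FUN19 was 0.74 ± 0.26 higher in set 3 than in sets 1 and 2 (n = 4 and 3; adjusted p = 0.0664), in a comparison that called 28.5% of probe sets.

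PRM5, the pheromone- and wall-stress-regulated gene, stood at 1.96, 1.82 and 1.81 on αENaC arrays 1, 2 and 3. The controls ranged from 0.43 to 1.23 with a median of 0.71. Every αENaC array was again above every control, by a gap of 0.58, and the highest controls were 1 and 2, at 1.23 and 1.21. The difference was 1.02 ± 0.17 (SE, n = 3 and 7), which ranked 18 among 5498. It was smaller within set 1, at 0.67, than within set 2, at 1.11. The set 1 controls had the highest PRM5 levels of the 7. The difference between the sets, 0.44 ± 0.26 on the log2 scale and larger in set 2, has no test here, as PRM5 was chosen on this contrast.

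YNL058C, the paralog of PRM5, stood at 1.33, 1.303 and 1.56 on αENaC arrays 1, 2 and 3. The controls ranged from 0.88 to 1.44 with a median of 1.35. αENaC 3 was the highest array, controls 1 and 2 were the lowest, and αENaC 1 and 2 lay below all 4 controls of set 3. The difference over all arrays was 0.16 ± 0.14 (SE, n = 3 and 7; adjusted p = 0.567), with a 95% interval from −0.15 to 0.47. It was 0.08 without αENaC 3 and 0.104 without control 1. Within sets YNL058C was higher in αENaC, by 0.41 in set 1 and 0.28 in set 2. With the set as a block the difference was 0.37 ± 0.05, which passed the test (adjusted p = 0.00446). That fit called 7.38% of probe sets higher. The spread it uses comes mostly from arrays of the same group and set, which apart from control 4 were near-identical. The rest comes from how the difference varies between sets 1 and 2. With the replicate number as a block, over αENaC 1 to 3 and controls 1 to 3, the same 0.37 did not pass (adjusted p = 0.146). On the deposited z scores, with no block, YNL058C was 0.33 SD units higher in αENaC and passed (adjusted p = 0.00386).

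YNL058C also differed among the controls. It was 0.36 ± 0.10 higher in set 3 than in sets 1 and 2 (n = 4 and 3; adjusted p = 0.0390), although leaving out 1 of controls 1, 2, 4, 5, 6 or 7 ended that call (adjusted p from 0.0641 to 0.139). In the αENaC arrays its mean was 0.01 above that of the set 3 controls. PRM5 had the opposite order in the controls, at 1.22 in set 1, 0.71 in set 2 and a mean of 0.70 in set 3, against 0.90, 1.28 and 1.39 for YNL058C. The log2 ratio of PRM5 to YNL058C was 0.85 higher in αENaC over all arrays, 0.25 within set 1 and 0.83 within set 2.

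YLR108C stood at −0.35, −0.43 and −0.67 on αENaC arrays 1, 2 and 3. The controls ranged from −1.66 to −0.95 with a median of −1.45. The groups did not overlap, but the gap was 0.27, set by control 4, the highest control. The difference was 0.94 ± 0.16 (SE, n = 3 and 7), which ranked 26 among 5498. It was 0.91 within set 1 and 0.98 within set 2, so YLR108C, like YOR338W, differed by nearly the same amount in both. YOR338W, PRM5 and YLR108C are the measured genes chosen for their rise, and all 3 are without overlap between groups. Over all probe sets 4.97% had every αENaC array above every control, but that count of 3 is fixed by how they were chosen.

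**Figure D2:**
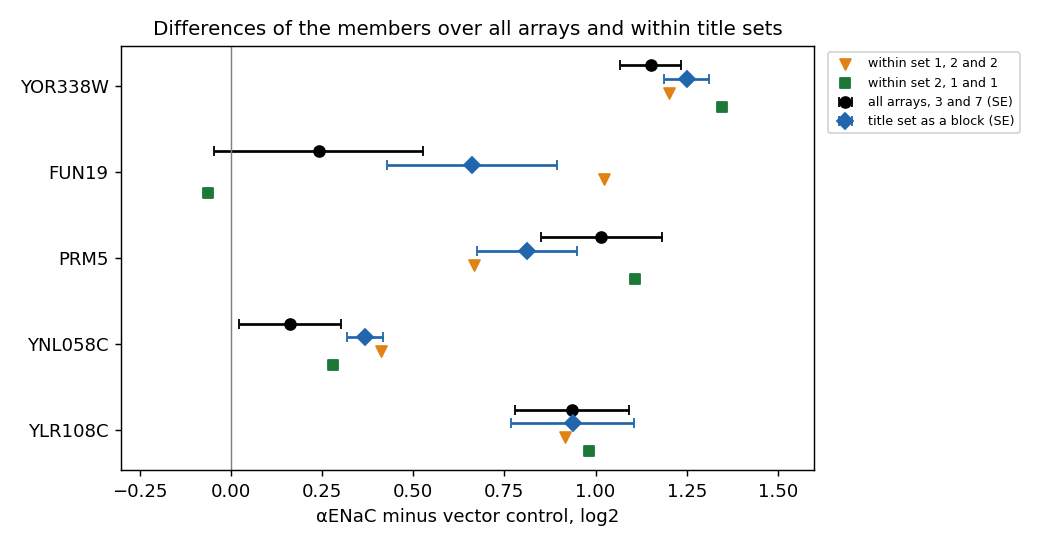
Difference of αENaC minus vector control (log2, horizontal axis) for the 5 measured genes over all arrays (black, with SE, n = 3 and 7), with the title set as a block (blue, with SE), within set 1 (orange, 2 and 2 arrays) and within set 2 (green, 1 and 1). The values of YOR338W and YLR108C are close together, those of FUN19 run from −0.06 within set 2 to 1.02 within set 1, and those of YNL058C are between 0.16 and 0.41.

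Set against the whole array, both measured paralogs lay in the body of the distribution. limma called 95 of 5498 probe sets, or 1.73%, at an adjusted p of 0.05, of which 75, or 1.36%, were higher in αENaC and 20 lower. The split depended on scaling, with 45 higher and 1 lower without normalization between arrays and 89 and 4 on the deposited z scores. FUN19 ranked 865 and YNL058C 1399 by size of rise, and neither of the 2 was called. When replicate numbers were paired as a block, none of the 5498 probe sets passed in limma and 1127 had an unadjusted p under 0.05. That fit has 3 against 3 arrays. The unpaired fit of 3 against 7 arrays had 998.

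**Figure D3:**
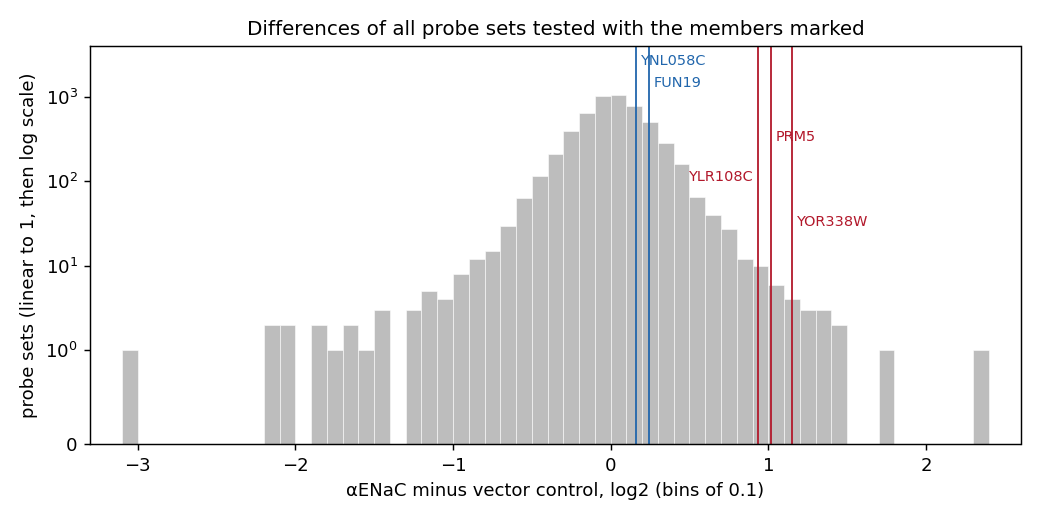
Number of probe sets (vertical axis, linear to 1 and then logarithmic) by difference of αENaC minus vector control (log2, bins of 0.1) for all 5498 tested. The paralogs FUN19 and YNL058C (blue lines, 0.24 and 0.16) are within the main peak, and YOR338W, PRM5 and YLR108C (red lines, 1.15, 1.02 and 0.94) are in its right tail, for which they were chosen.

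FUN19 was compared with general stress genes, the targets of Msn2 and Msn4 that yeast induces in many stresses. The median level of 14 such markers was 0.28 and 0.32 on controls 1 and 2, 2.03 on control 3 and 1.44 to 2.06 on controls 4 to 7. It was 1.76, 1.91 and 1.45 on αENaC arrays 1, 2 and 3. So controls 1 and 2 were the lowest and control 4 the highest for these markers as for FUN19. On control 3 the markers were higher than on any αENaC array, whereas FUN19, at 0.62, was below αENaC 1 and 2. Within set 1 all 14 were higher in αENaC, at a median of 1.54, and within set 2 only 1 was, at a median of −0.62. Over all arrays none of the 14 was called and their median difference was 0.32, against 0.02 for all probe sets. TPS2, which makes the protectant trehalose, was at 0.43 ± 0.20 (adjusted p = 0.277). The glycogen synthase gene GSY2 was at 0.60 ± 0.29 (adjusted p = 0.305). The marker that was higher in αENaC within set 2 was HSP12, by 0.59. In the set-block fit HSP12 was called higher, at 1.55 (adjusted p = 0.0117), where 7.38% of all probe sets were. The part of this stress pattern in the FUN19 values was not tested.

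**Figure D4:**
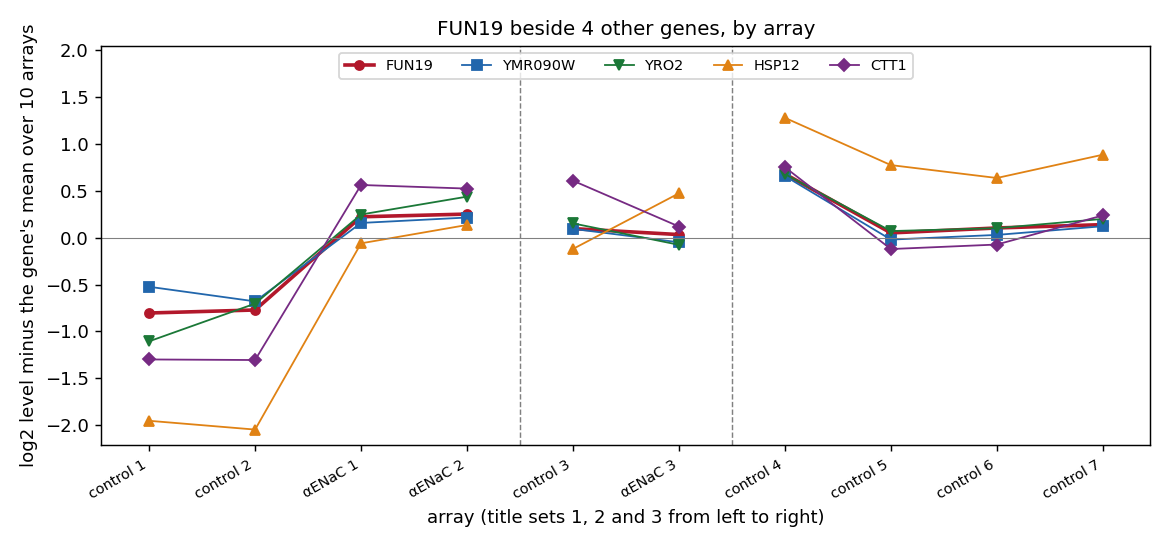
Level minus the gene's own mean over 10 arrays (log2, vertical axis) for FUN19, for YMR090W and YRO2, the genes most like it, and for the stress markers HSP12 and CTT1, on each array, with dashed lines between title sets. Lines only guide the eye. All 5 genes are lowest on controls 1 and 2 and highest on control 4.

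The genes most like each member were found by Pearson correlation of levels over the 10 arrays, which share their sets, among 4957 other probe sets above background. FUN19 was most like YMR090W (r = 0.982), YRO2, a gene for a membrane protein related to a heat-shock protein (r = 0.977), and SEC20, a SNARE of Golgi-to-ER transport (r = 0.974). None of these was called between the groups. YMR090W and YRO2 were 0.79 and 1.25 higher in αENaC within set 1 and 0.14 and 0.23 lower within set 2, as FUN19 differed. SEC20 was 0.23 higher within set 1 and 0.004 higher within set 2. YNL058C was most like MDM36 (r = 0.980) and MDM32 (r = 0.970), both needed for normal mitochondrial shape, and CDC27, a subunit of the anaphase-promoting complex (r = 0.968). MDM36 lay near the background, at a mean of −2.06 in the controls. With the means of each set removed, these 6 correlations were 0.949 to 0.989.

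For YOR338W, PRM5 and YLR108C the likeness holds the contrast on which they were chosen. The differences of the genes most like them are therefore a description, without a test. YOR338W was most like ULI1, a gene of the unfolded protein response (r = 0.996), DLD2, a dehydrogenase of hydroxy acids (r = 0.986), and the sugar phosphatase gene DOG2 (r = 0.979). ULI1 was higher in αENaC by 2.31 ± 0.14, and by 2.39 in set 1 and 2.83 in set 2. YLR108C was most like the acyl-CoA synthetase gene FAA2 (r = 0.979), SRL3 (r = 0.969) and the lipase gene LPL1 (r = 0.967). FAA2 was higher by 0.50 ± 0.09 and SRL3 by 0.69 ± 0.15. PRM5 was most like TMA64, a ribosome-associated factor (r = 0.984), TRS65, a subunit of the TRAPP complex in vesicle traffic (r = 0.979), and AAD4 (r = 0.969). TMA64 was higher by 0.39 ± 0.08. The replicate block called 0 probe sets, so none of ULI1, FAA2, SRL3 and TMA64. The probe sets of DOG2 and AAD4 are marked as sharing probes with other sequences.

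Other genes linked to the members by pathway or protein family were read as 5 lists, the general stress markers included. Of the 53 distinct genes measured none was called by limma over all arrays, against 1.73% of all probe sets. An unadjusted p under 0.05 was found for 6, or 11.3%, against 18.2% of all probe sets. Over all 5498 probe sets the difference was positive for 2959, with a median of 0.02. Of 20 genes listed as targets of Rlm1 or of cell wall integrity signalling, 19 were measured and none was called, with 18 positive and a median of 0.16. Their median was 0.10 within set 1 and 0.32 within set 2, in the same order as for PRM5. SLT2, the kinase of the pathway, was at 0.69 ± 0.23 (adjusted p = 0.154). Its difference was 0.07 within set 1 and 0.99 within set 2. PUN1, a plasma membrane protein gene, was at 0.57 ± 0.13 (adjusted p = 0.0542), and the aspartic protease gene YPS3 at 0.69 ± 0.20 (adjusted p = 0.104). In the set-block fit 3 of the 19 were called higher, where 7.38% of all probe sets were. These were PUN1 at 0.45 (adjusted p = 0.0154), the transcription factor gene RLM1 at 0.55 (adjusted p = 0.0305) and GSC2, the gene of a glucan synthase also called FKS2, at 0.99 (adjusted p = 0.00973).

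All 9 other pheromone-regulated PRM genes were measured and none was called. Differences ran from −0.32 to 0.71 with 5 positive and a median of 0.11, against 2959 positive of all 5498 probe sets. Of the 5 above background 4 were positive, and 4, among them PRM1 at the low end, lay below it. Within set 1 7 of the 9 were positive and within set 2 6 were. PRM10 was at 0.71 ± 0.32 (adjusted p = 0.277). Its difference was −0.04 within set 1 and 1.51 within set 2. PRM8 was at 0.33 ± 0.16 (adjusted p = 0.315), with 0.82 and −0.08. In the set-block fit PRM2, below background in both groups, was at 0.31 (adjusted p = 0.0388).

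Among 3 other genes for SWIRM proteins, none was called and all were negative, at a median of −0.24 against 0.02 for all probe sets. RSC8, a subunit of the RSC chromatin remodeller, was at −0.24 ± 0.07 (adjusted p = 0.1004), and ADA2, below background, at −0.59 ± 0.55 (adjusted p = 0.602). In the set-block fit RSC8 was called lower, at −0.25 (adjusted p = 0.0314), where 377 of all 5498 probe sets were. Of 10 genes for regulators linked to the members, AZF1, SCP160, HSF1, MSN2 and STE12 among them, none was called, and the median was 0.05. RLM1 was at 0.40 ± 0.14 (adjusted p = 0.176).

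**Figure D5:**
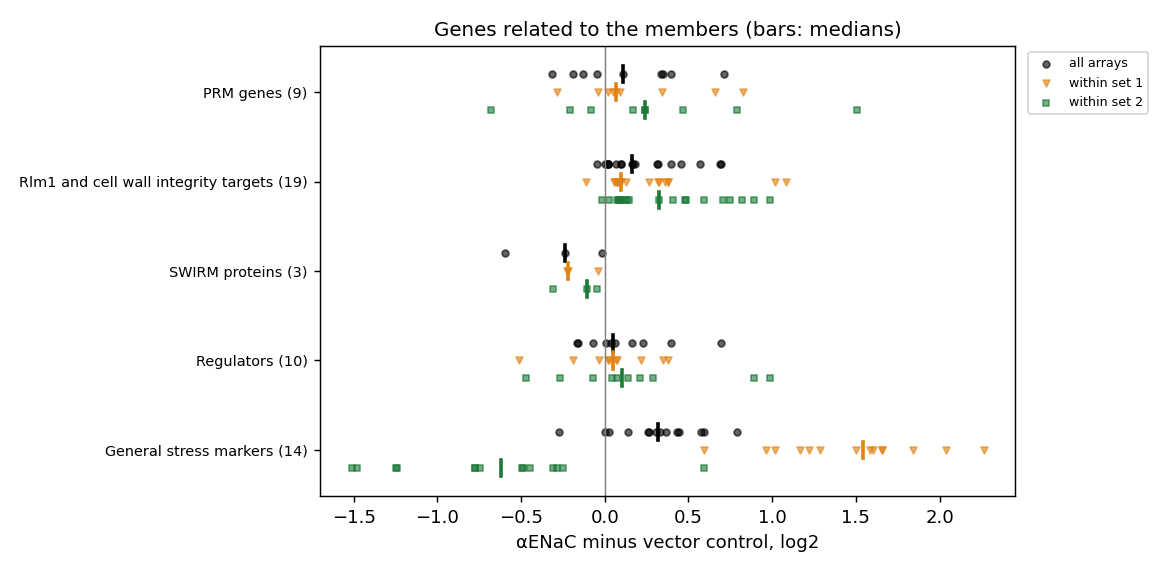
Difference of αENaC minus vector control (log2, horizontal axis) for each measured gene of 5 related lists (number measured in brackets), over all arrays (black), within title set 1 (orange) and within title set 2 (green), with bars for medians. General stress markers, 1 of 14 excepted, are on opposite sides of 0 in sets 1 and 2 (medians 1.54 and −0.62), and the cell wall integrity targets are mostly right of 0 (medians 0.10 and 0.32).

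The genes beside the members on the chromosome were also read. Of 12 flanking genes in the RefSeq gene table, 10 were measured and none was called, against 1.73% of all probe sets. Differences ran from −0.20 to 0.27. An unadjusted p under 0.05 in limma was found for 2 of the 10, against 18.2% of all probe sets. Beside YOR338W, the transcription factor gene TEA1 was at 0.02 ± 0.14 (adjusted p = 0.949), and UBC11, below background, was at −0.07 ± 0.07 (adjusted p = 0.648). Beside PRM5, the GTPase gene RHO3 was at −0.12 ± 0.09 (adjusted p = 0.492) and the histidine synthesis gene HIS5 at 0.16 ± 0.13 (adjusted p = 0.565). Beside FUN19, the kinetochore gene MTW1, below background on average, was at −0.11 ± 0.08 (adjusted p = 0.493) and the RNase P and MRP subunit gene POP5 at −0.16 ± 0.14 (adjusted p = 0.589). Beside YLR108C, the peroxiredoxin gene AHP1 was at 0.27 ± 0.13 (adjusted p = 0.298), but was called higher in the set-block fit, at 0.47 (adjusted p = 0.00192). That fit called 406 of all 5498 probe sets higher and 377 lower. Beside YNL058C, ARP5, a subunit of the INO80 remodeller, was at −0.20 ± 0.06 (adjusted p = 0.104) and was called lower in the set-block fit, at −0.17 (adjusted p = 0.0384). OCA2, on its other side, was at 0.18 ± 0.18 (adjusted p = 0.634). YDR131C, beside the unmeasured YDR132C, was at 0.22 ± 0.10 (adjusted p = 0.274).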

How the data were processed

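Total RNA of 10 yeast cultures was labelled with biotin as cRNA with a 3' IVT kit and hybridised to single-colour arrays, per the labels' protocols. The authors deposited a score per probe set. Its distribution (mean 0 and SD 1 over the 10715 probe sets of each array) is that of z scores, and how probes were summarised is not stated in the labels. Each array's lowest score was subtracted and the result divided by the size of that score. Then 0.03 was added, log2 taken and arrays quantile normalized. The added 0.03 shrinks log2 differences of low genes, whereas taking the lowest score as no signal can enlarge them. The net effect was not tested. Platform annotation gave names (5498 probe sets, 5449 genes), updated through the RefSeq gene table of assembly R64. That table supplied names and neighbouring genes only. No sequence was used here.

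limma 3.58.1 under R 4.3.3 gave the tests (functions lmFit, eBayes; 2-sided, Benjamini-Hochberg over 5498 probe sets, threshold 0.05, 8 residual degrees of freedom). The steps were tested on simulated data. The members, lists and tests were chosen with earlier results of these data known. Named genes are the members, the gene on each side of each, the 2 of each list with the smallest p and the 3 most like each member. RLM1 and SLT2 stand in both the cell wall and the regulator list. GSC2, PRM2, HSP12 and CTT1 were named after their values were seen. Where a gene has several probe sets, lists take that with the smallest p.

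As a check of pairing, each array's deviation from its group mean was taken. Between αENaC and control arrays of the same number these correlated across probe sets at 0.41, 0.22 and 0.17. Arrays of the same number also come from the same title set, and arrays of different numbers were not compared. These values therefore cannot tell pairing by number from a shared set. The replicate numbers in the titles were paired only in the replicate block, and the main fit was unpaired. The replicate block uses 3 against 3 arrays and has 2 residual degrees of freedom. The number of arrays limits precision, and p-values reflect only how these arrays vary, part of which may be technical. Alternatives changed scaling, pseudocount, probe sets tested, variance model, blocks and arrays used.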

Additional observations from a re-analysis of the deposited data

Results flagged for a closer look

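FUN19 was higher in αENaC on both arrays of set 1 than on both controls of that set, and lower on the αENaC array than on the control of set 2. The difference between the sets was 1.09 on the log2 scale, with an SE of 0.33 (limma unadjusted p = 0.0124, adjusted p = 0.0607), so the difference itself did not pass. It rests on 1 array per group in set 2.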

How the results depend on the processing

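No αENaC-control alternative called FUN19 (adjusted p from 0.0919 to 0.998). Its difference turned to −0.074 against the set 3 controls alone, an alternative chosen after seeing the data. Its set 2 value turned to 0.024 with no normalization between arrays. YNL058C was called with the set as a fixed block (0.368), as a random block (0.344), as a block in sets 1 and 2 alone (0.368, adjusted p = 0.0309) and on the deposited z scores (0.335 SD units, adjusted p = 0.00386), but not with the replicate block (0.368). YOR338W, PRM5 and YLR108C kept their sign under every alternative run, at 0.996 to 1.37, 0.813 to 1.17 and 0.820 to 1.14 on the log2 scale.

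Set 3 controls against the others, YNL058C lost its call with median centring (0.329), with no normalization (0.208) and on z scores (0.084 SD units), and ran from 0.287 to 0.485 with 1 control left out. FUN19 ran from 0.580 to 1.03 there and was called without control 3.

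Probe sets called higher and lower numbered 34 and 5 with median centring, 45 and 1 with no normalization (median of all probe sets shifted by 0.16) and 89 and 4 on z scores. They numbered 406 and 377 with the set as a fixed block, 358 and 259 as a random block, 18 and 2 in sets 1 and 2 alone, and 250 and 186 there with the set block. They numbered 0 and 0 with the replicate block and with near-identical arrays averaged, where limma gave an unadjusted p under 0.05 for 1127 and 219. With 1 array left out they ran from 11 to 162 and from 1 to 86: 11 and 1 without αENaC 1, 11 and 2 without αENaC 2, 151 and 86 without αENaC 3, 162 and 75 without control 3, 104 and 32 without control 4, and 40 and 4 or 5 without control 5, 6 or 7. The cause was not tested. Of the 53 related genes, 5 were higher and 1 lower with the set in any of the 3 block fits, 1 was higher in sets 1 and 2 alone, and 0 to 2 were higher with 1 array left out. Of the 10 flanking genes measured 2, 2 and 1 were called in those block fits, whose counts over all 5498 probe sets are given above. The replicate block thus ended every call of the unblocked fit and added none.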
